A study of Mus musculus with 20 samples.

Results

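The comparison described here is that of Hepa1-6 cells treated with TGFβ1 for 6 h with untreated cells of the same time, 2 arrays of each, out of 20 arrays in the series. The arrays were chosen by their titles alone, and the response is described over 18193 genes, each read from the probe set with the highest mean over all 20 arrays. Hepa1-6 is an epithelial line from a hepatoma of a C57L mouse. Growth factors were withdrawn from all cells, controls included, 4 h ahead of treatment. The treated cells then received 1 ng/ml TGFβ1 and the untreated cells none, and both were harvested at 0, 1, 3, 6 and 10 h as biological duplicates. RNA was read on Affymetrix arrays, whose deposited values are log2 levels from RMA, so a difference of 1 between groups is a 2-fold change.

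TGFβ1 is a secreted dimer that binds the type II receptor, which phosphorylates the type I receptor, which in turn phosphorylates SMAD2 and SMAD3. These join SMAD4 and act in the nucleus with other transcription factors, and among the genes they turn on are inhibitors of the pathway itself. In hepatocytes the factor is known for halting growth, promoting cell death, remodelling adhesion and inducing matrix genes.

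A single tumour line has no neighbouring liver cells and keeps only some hepatocyte genes. Albumin (Alb) and α-fetoprotein (Afp), a fetal liver product, averaged 12.01 and 12.78 over the 20 arrays. However, only 3 of the 8 hepatocyte markers lay above the median of all genes, Hnf4a just above it at percentile 52.3, while Apoa1 lay about at it. Of 5 duct cell markers 4 lay above this median. Of 7 endothelial markers none lay above it, and of 8 macrophage and leukocyte markers 2 did, Csf1r and Cd14. Among 10 stellate cell and fibroblast markers 2 did, Des and the proteoglycan decorin (Dcn, 13.42). The mean log2 levels of the endothelial markers added up to 29.3 in untreated and 29.1 in treated cells at 6 h. Those of the stellate cell and fibroblast markers added up to 54.0 and 55.8. In such sums of log2 values a marker near the floor can move the total as much as an abundant one. The duplicates correlated at 0.997 in treated and 0.996 in untreated cells at 6 h, against 0.993 to 0.994 between treated and untreated arrays. With 2 arrays a group, the spread of each gene was taken from all 10 groups. Calls refer to limma with Benjamini-Hochberg adjustment over all genes at 0.05, and errors are standard errors of the log2 difference. The arrays read the RNA of the whole culture, so a shift in the share of cells in a state and a change of RNA per cell cannot be told apart.

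At 6 h, 15.7% of the genes passed: 1414 were higher (7.77% of those tested) and 1448 were lower (7.96%) in treated cells. Most changes were small: the median size among called genes was 0.36 on the log2 scale, 0.40 for rises and 0.34 for falls, and the smallest called difference was 0.11. Changes of at least 2-fold were more often rises, with 126 genes higher (0.693%) and 49 lower (0.269%). In 2860 of the 2862 called genes both treated arrays lay beyond both untreated arrays, although groups of 2 fail to overlap easily: 21.8% of all genes did so upward and 29.5% downward. Of the 1764 called genes with several probe sets, 676 had at least 2 that passed in the same direction and 2 had one that passed in the other. The median difference over all genes was -0.03.

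**Figure D1:**
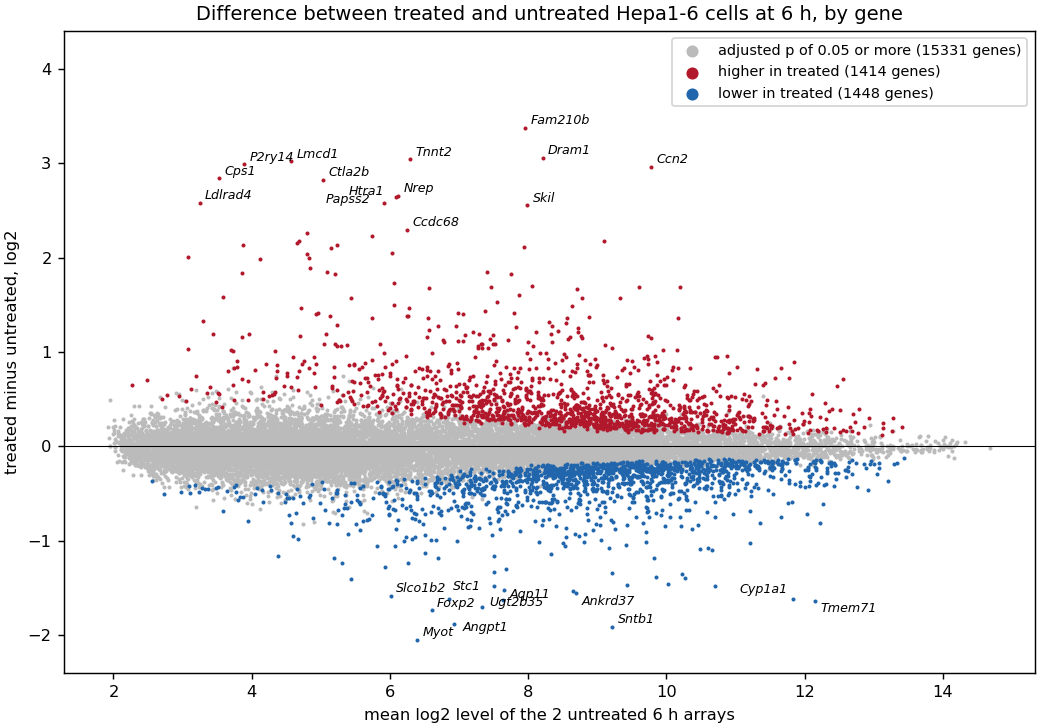
Each point is a gene, with the mean log2 level of the 2 untreated 6 h arrays on the horizontal axis and the log2 difference, treated minus untreated at 6 h, on the vertical axis. Red and blue mark the 1414 higher and 1448 lower genes, and the largest rises reach further from 0 than the largest falls.

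The largest rise was that of Fam210b, a mitochondrial membrane protein (10.4-fold), followed by Dram1, a lysosomal membrane protein (8.32-fold), the troponin Tnnt2 (8.25-fold), Lmcd1 (8.11-fold), the nucleotide sugar receptor P2ry14 (7.95-fold) and the matrix protein Ccn2 (7.81-fold). Ccdc68, which encodes a coiled-coil protein, read 8.58 and 8.50 in treated and 6.31 and 6.18 in untreated cells, a 4.92-fold rise (2.30 ± 0.08, adjusted p = 1.84e-14). Sertad4 read 7.10 and 7.0 against 5.02 and 4.57, 4.78-fold higher. Klhdc8a, a kelch repeat protein, read 6.87 and 6.82 against 4.80 and 4.80, 4.12-fold higher. These genes were named among those with no overlap of arrays, so their separation restates the choice. Cd40, a receptor of the TNF receptor family that carries costimulatory signals, was 4.33-fold higher at 10.09 and 10.02 against 8.0 and 7.88. F11, the coagulation factor XI made by hepatocytes, was 4.4-fold higher at 7.31 and 7.44 against 5.28 and 5.2. Pstpip1, an adaptor of the actin skeleton best known from blood cells, was 4.28-fold higher, and its treated arrays lay further apart than those of the genes named before it (7.04 and 7.46, against 5.2 and 5.10). Ctla2a rose 4.70-fold beside its near-identical neighbour Ctla2b, and the probe sets may not separate the pair. All of these adjusted p-values lay at or below 4.76e-09, that of F11, by limma.

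The largest fall was that of Myot, the sarcomere protein myotilin (4.15-fold), followed by Sntb1 (3.76-fold) and the vascular ligand Angpt1 (3.70-fold). Cpm, a carboxypeptidase on the cell surface, read 9.14 and 9.30 in treated and 10.74 and 10.65 in untreated cells, 2.79-fold lower (-1.48 ± 0.08, adjusted p = 2.16e-11). Apela, a peptide ligand of the apelin receptor, read 8.48 and 8.45 against 9.90 and 9.80, 2.60-fold lower. Hunk, a kinase of the AMPK-related family, read 7.89 and 7.85 against 9.32 and 9.12, 2.54-fold lower. The falls were chosen in the same way, with no overlap of arrays. Fgfbp3, a carrier of fibroblast growth factors, fell 2.90-fold, Calcrl, the receptor subunit for adrenomedullin and CGRP, 2.46-fold, and the zinc finger gene Zfp467 2.53-fold. Ppp1r3c, which brings protein phosphatase 1 to glycogen, read 7.97 and 7.94 against 9.46 and 9.38 and was also lower at the other times, with differences of -1.57 at 1 h, -2.07 at 3 h and -0.82 at 10 h on the log2 scale. Acaa1b, a thiolase of the peroxisome, read 3.96 and 4.10 in treated and 5.52 and 5.34 in untreated cells, 2.64-fold lower.

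**Figure D2:**
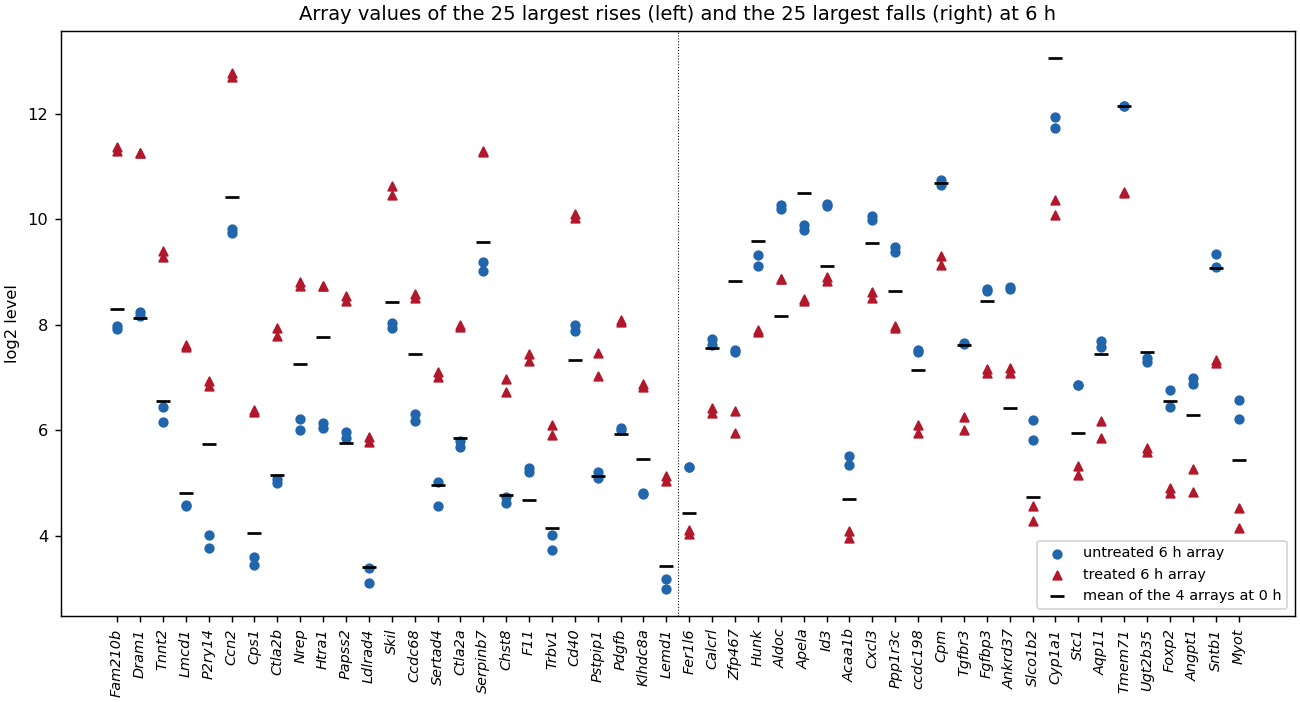
The log2 level of every 6 h array is shown for the 25 largest rises (left of the dotted line) and the 25 largest falls (right), treated arrays as triangles and untreated arrays as circles, with the mean of the 4 arrays at 0 h as a bar. The 50 genes were chosen among those whose treated and untreated arrays do not overlap, and the bar lies between or beside the groups in different genes.

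Among 24 SMAD feedback genes and corepressors, 11 were higher and none lower (median difference 0.25, against -0.03 over all genes). They included Skil and Ski, corepressors of the SMADs. Skil read 10.62 and 10.45 in treated and 8.03 and 7.94 in untreated cells, 5.87-fold higher (2.55 ± 0.07, adjusted p = 7.33e-16). Spsb1, which directs TGFβ receptors to degradation, read 6.94 and 6.92 against 5.12 and 5.05, 3.60-fold higher, although only 1 of its 4 probe sets passed. The inhibitory SMAD, Smad7, read 9.08 and 9.12 against 8.02 and 7.98, 2.14-fold higher. These 3 genes were named for low adjusted p-values, so the gap between their groups restates the choice. Ldlrad4, a membrane protein that withholds SMAD2 and SMAD3 from the receptor, was 5.98-fold higher, from levels of 3.39 and 3.11 in the controls. Bhlhe40, a transcriptional repressor that also belongs to the clock, was 3.17-fold higher. Fkbp1a, which binds type I receptors, did not pass at 0.07 ± 0.05 (adjusted p = 0.402).

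Of 31 ligands, receptors and SMADs of the TGFβ family, 7 were higher and 1 lower (median 0.05). Both secreted binders of activin rose. Fstl3 read 7.71 and 7.56 in treated and 6.26 and 6.25 in untreated cells, 2.61-fold higher (adjusted p = 9.49e-09). Follistatin (Fst) read 10.93 and 11.07 against 10.19 and 10.15, 1.78-fold higher (adjusted p = 1.63e-09). Among receptors, the type I receptors Tgfbr1 (0.73 ± 0.06) and Acvr1 (0.52 ± 0.06) rose. The co-receptor betaglycan, Tgfbr3, was the 1 member that fell: it read 6.25 and 6.01 in treated and 7.66 and 7.64 in untreated cells, 2.86-fold lower (adjusted p = 4.89e-10). Smad4 did not pass at 0.14 ± 0.05 (adjusted p = 0.0747). For Tgfbr1 1 of 3 probe sets passed and for Tgfbr3 1 of 2.

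The BMP branch, which signals through other SMADs and drives the Id genes and hepcidin, had 4 members higher and 7 lower of 25 (median -0.09). Id3, an inhibitor of helix-loop-helix transcription factors, read 8.83 and 8.91 in treated and 10.25 and 10.29 in untreated cells, 2.64-fold lower (-1.4 ± 0.07, adjusted p = 3.43e-12). Its relative Id2 read 8.99 and 9.01 against 9.80 and 9.70, 1.68-fold lower (adjusted p = 6.88e-06). The ligand Bmp7 read 7.86 and 7.98 against 8.52 and 8.60, 1.56-fold lower, in all 3 of its probe sets. The receptor Bmpr2 went the other way, 1.85-fold higher at 10.76 and 10.75 against 9.86 and 9.87. Without the second treated array 4 members were lower and 2 higher, without the first treated array 2 were higher, and without the second untreated array 1 was higher.

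The Id genes were among 23 genes that were lower at 6 h but higher at 1 h (31 genes had opposite calls at these times). The 1 h and 6 h effects share no array. Since these genes were picked for calls in opposite directions, a difference between their effects follows from the choice; over all genes 7.19% had a difference between 1 h and 6 h that passed limma. Id3 was 1.80 higher at 1 h and Id2 2.34 higher, both log2 differences. Among 30 immediate early genes, 8 were higher and 6 lower at 6 h. Fos, a subunit of AP-1, read 6.69 and 6.58 in treated and 7.42 and 7.46 in untreated cells at 6 h, 1.75-fold lower (adjusted p = 2.85e-06), after a log2 difference of 1.43 at 1 h. Fosl1 was 1.83-fold lower at 6 h after 0.51 at 1 h. Junb and Jun, their partners in AP-1, did not fall: Junb was 2.66-fold higher (8.36 and 8.42 against 7.07 and 6.90) and Jun 1.60-fold higher. Gadd45b, a stress gene that acts on MAP kinase signalling, was 2.17-fold higher at 6 h after a log2 difference of 3.41 at 1 h. In the opposite sense, Myc was -1.18 at 1 h and 0.48 at 6 h, and its arrays at 6 h read 10.47 and 10.51 treated and 9.98 and 10.04 untreated. Hes1, a Notch target, was 1.86 at 1 h and -0.43 at 6 h. Hbegf, a ligand of the EGF receptor named after its values were seen, was 1.09 at 1 h and -0.50 at 6 h.

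**Figure D3:**
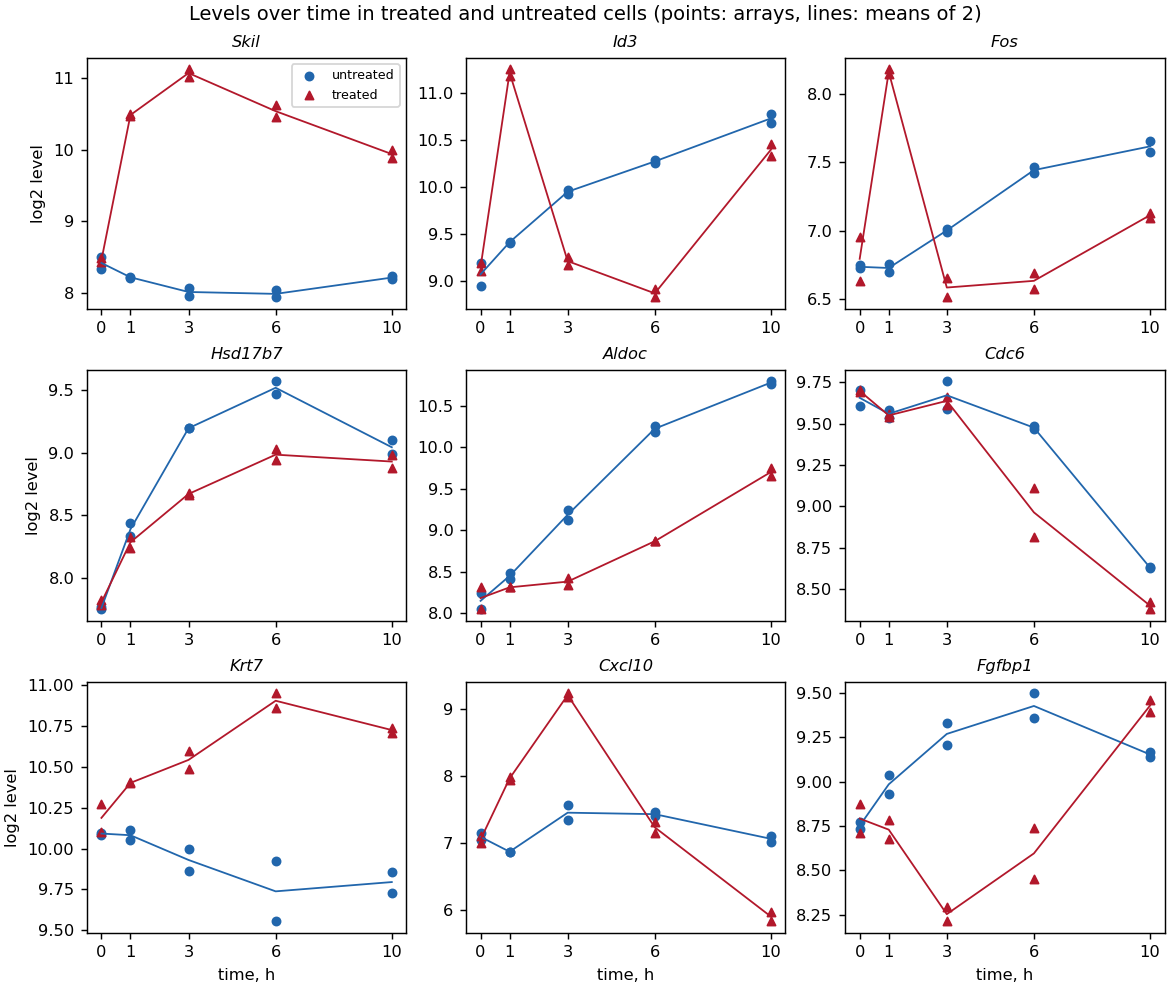
Log2 levels of 9 genes are plotted against time in hours, with a point per array (blue circles untreated, red triangles treated) and lines through the means of 2. Id3 and Fos peak at 1 h in treated cells and lie below the untreated cells at 6 h, Hsd17b7 and Aldoc stand above their 0 h levels at 6 h in both arms but less so in treated cells, and Krt7 is higher in treated cells at 6 h.

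Genes of the matrix and its turnover were more often higher than lower. Of 46 genes for matrix proteins and crosslinkers 7 were higher and 2 lower (median 0.04), 1 lower without the first treated or the first untreated array. The share called in this list was 19.6%, not far above the 15.7% of all genes. Higher were 15.2% against 7.77% of all genes, and lower 4.35% against 7.96%. The laminin chain Lamb1 read 8.64 and 8.69 in treated and 7.56 and 7.42 in untreated cells, 2.26-fold higher (adjusted p = 9.26e-07). The laminin chain Lamb3 read 8.56 and 8.62 against 7.30 and 7.6, 2.21-fold higher (adjusted p = 1.49e-07). Thrombospondin 1 (Thbs1), which can activate latent TGFβ, read 11.82 and 11.85 against 10.90 and 10.85, 1.94-fold higher. The crosslinking enzyme transglutaminase 2 (Tgm2) and fibronectin (Fn1) rose less, 1.58-fold and 1.38-fold. Decorin, the member with the highest level among those that did not pass, differed by -0.02 ± 0.05. Of the 10 stellate cell and fibroblast markers, Col1a1 (0.94) and Pdgfrb (0.63) rose, Lrat, Lum and Col3a1 stayed at low levels, and the part of such cells in these results was not tested. Of 36 proteases and inhibitors 11 were higher and 3 lower (median 0.12), 1 lower without the first untreated array. Serpinb7, a serine protease inhibitor, read 11.27 and 11.30 against 9.19 and 9.02, 4.53-fold higher. The plasminogen activator Plat read 11.58 and 11.48 against 10.19 and 10.15, 2.56-fold higher (adjusted p = 1.06e-12), and the membrane metalloprotease Mmp24 was 2.06-fold higher, each by 1 of its probe sets.

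Sulfated glycans are built by polymerases and sulfotransferases, and 9 of 37 proteoglycan and sulfation genes were higher and 2 lower (median 0.10). Papss2, which makes the activated sulfate that these enzymes use, read 8.54 and 8.44 in treated and 5.97 and 5.86 in untreated cells, 5.98-fold higher (adjusted p = 2.25e-12). Chst8, a sulfotransferase, read 6.98 and 6.73 against 4.74 and 4.62, 4.51-fold higher. Ext1, a polymerase of heparan sulfate, read 10.91 and 10.95 against 9.80 and 9.75, 2.22-fold higher. Chsy1, which extends chondroitin chains, was 1.56-fold higher. Syndecan 4 (Sdc4), a heparan sulfate carrier at the cell surface, fell 1.62-fold (9.82 and 9.95 against 10.58 and 10.58, adjusted p = 1.63e-09).

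Of 28 integrins and focal adhesion genes 9 were higher and 1 lower (median 0.08). Integrin αv (Itgav) read 12.47 and 12.50 in treated and 11.69 and 11.62 in untreated cells, 1.78-fold higher (adjusted p = 4.23e-11). Its partner β5 (Itgb5) read 10.55 and 10.66 against 9.72 and 9.73, 1.84-fold higher in all 4 probe sets. Kindlin 2 (Fermt2), which activates integrins, was the 1 that fell, 1.39-fold. Integrin α6 (Itga6) differed by -0.12 ± 0.04 and did not pass (adjusted p = 0.0592).

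Epithelial genes were more often higher than lower. Of 34 junction and keratin genes 12 were higher and 2 lower (median 0.15), 1 lower without the second treated or the first untreated array. Claudin 4 (Cldn4), a tight junction protein, read 11.85 and 11.93 in treated and 10.16 and 10.24 in untreated cells, 3.22-fold higher (adjusted p = 1.84e-14). Plakoglobin (Jup), a linker of junctions to the cytoskeleton, read 9.77 and 9.76 against 8.63 and 8.58, 2.23-fold higher (adjusted p = 3.43e-12). Keratin 7 (Krt7), an intermediate filament of duct cells, read 10.86 and 10.95 against 9.92 and 9.55, 2.25-fold higher. Keratin 20 and desmoplakin (Dsp) rose 2.03-fold and 1.79-fold. Of the 5 duct cell markers Krt7, Sox9 and Epcam rose, the last pair by 0.43 and 0.21. Krt19 and Cftr went the other way, by -0.25 and -0.18, and did not pass by limma (adjusted p = 0.451 and 0.463). The part of duct cells in these results was not tested. In this list the effect was more positive at 6 h than at 3 h in 8 members and more negative in 1, by limma's test of the difference, which 2.86% and 1.69% of all genes passed. Of 24 transcription factors and cadherins of epithelial to mesenchymal transition 4 were higher and none lower, with a median of -0.01. The 16.7% called lay near the 15.7% of all genes. Higher were N-cadherin (Cdh2, 1.38-fold), vimentin (Vim, 1.30-fold) and the E-proteins Tcf4 (1.44-fold) and Tcf3 (1.24-fold), the last in 1 of 3 probe sets. The repressor Zeb1 differed by 0.09 ± 0.07 (adjusted p = 0.45).

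Of 38 actin cytoskeleton genes and targets of serum response factor 13 were higher and 2 lower (median 0.11), 1 lower without the first treated or either untreated array. Pdlim7, which ties kinases to actin fibres, read 9.27 and 9.23 in treated and 7.47 and 7.33 in untreated cells, 3.61-fold higher in all 3 probe sets. Caldesmon (Cald1), which stabilises actin filaments, read 12.77 and 12.70 against 11.88 and 11.81, 1.85-fold higher. Zyxin (Zyx) and α-actinin 1 (Actn1) rose 1.53-fold and 1.30-fold. Thymosin β10 (Tmsb10) differed by 0.05 ± 0.03.

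YAP and its relative TAZ sit on TEAD factors and answer to tension and cell contact. Of 27 of their targets and pathway genes 10 were higher and 1 lower (median 0.12), and the lower member did not pass without the second treated or the first untreated array. Ccn1, a matrix protein, read 9.02 and 9.23 in treated and 7.98 and 8.15 in untreated cells, 2.09-fold higher in all 4 probe sets (adjusted p = 2.51e-08). Nuak2, a kinase, read 9.47 and 9.53 against 8.62 and 8.48, 1.92-fold higher. Ankrd1, a nuclear cofactor, was 1.44-fold higher, whereas Yap1 itself differed by 0.05 ± 0.05 (adjusted p = 0.68). The TEAD core GGAATG, on either strand, stood in the 300 bases from 250 before to 50 after the RefSeq start (GRCm38.p6) in 5 of the 7 higher members with a promoter entry and in 13 of 19 of the list, against 15.3% of all 14452 promoters of tested genes. Such a match describes the letters and is no evidence of binding. Part of 3 of these promoters is shown in gene orientation because the members share the core, which is in capitals, as its reverse complement CATTCC in Ccn1 and Amotl2. The windows are chr3:145650053-145650108 (minus strand), chr19:36119932-36119987 (minus) and chr9:102717719-102717774 (plus).
Ccn1: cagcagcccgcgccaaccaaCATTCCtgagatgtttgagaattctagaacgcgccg
Ankrd1: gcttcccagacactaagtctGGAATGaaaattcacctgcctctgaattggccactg
Amotl2: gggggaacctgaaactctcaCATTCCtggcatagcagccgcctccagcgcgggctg

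Growth factor genes moved both ways, 7 higher and 8 lower of 40 (median -0.04). The platelet-derived growth factors rose: Pdgfb read 8.06 and 8.09 in treated and 6.00 and 6.05 in untreated cells, 4.14-fold higher (adjusted p = 6.56e-12). Pdgfc read 10.35 and 10.34 against 8.78 and 8.76, 2.98-fold higher (adjusted p = 1.77e-14). The EGF receptor (Egfr) was 2.06-fold higher in 2 of its 7 probe sets, whereas its ligand Tgfa was 1.72-fold lower (8.46 and 8.39 against 9.19 and 9.22). Vegfc, a factor for lymphatic vessels, was 1.76-fold lower in all 3 probe sets. Igfbp3, a carrier of insulin-like growth factors and a known TGFβ target, read 9.79 and 9.73 against 8.06 and 8.05, 3.25-fold higher. Igfbp4 fell 1.23-fold in 5 of 6 probe sets. Of 44 genes of axon guidance, which epithelia also use for cell contacts, 8 were higher and 2 lower (median -0.04), 5 higher without the first treated or the second untreated array and 4 without the first untreated array. Tenm4, a teneurin, read 7.77 and 7.83 against 6.18 and 5.95, 3.33-fold higher, the receptors Nrp1 and Robo1 were 2.42-fold and 2.39-fold higher, and the ligand Sema3c was 1.76-fold lower. Endothelin 1 (Edn1), a vasoactive peptide, was 2.60-fold higher, with treated arrays at 7.38 and 7.88 and untreated arrays at 6.41 and 6.09. S1pr1, a receptor for sphingosine 1-phosphate, was 1.92-fold higher.

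Of 50 G1/S and replication genes 28 were lower and 1, Ccnd1, higher (median -0.24), and 21 did not pass. The lower count was 15 without the second treated array and 11 without the first untreated array, and Ccnd1 did not pass without the second treated array. Cdc6, which loads the replicative helicase, read 9.11 and 8.81 in treated and 9.48 and 9.47 in untreated cells, 1.43-fold lower (-0.51 ± 0.07, adjusted p = 3.06e-05). Uhrf1, which maintains DNA methylation at the fork, read 10.10 and 9.96 against 10.44 and 10.51, 1.35-fold lower. Rrm2, a subunit of the enzyme that makes deoxynucleotides, read 11.80 and 11.70 against 12.06 and 12.09, 1.25-fold lower. Each of the 3 had both treated arrays below both controls, as had 29.5% of all genes, and the 3 were named for their calls. The median difference of the list between 6 h and 0 h was -0.16 in untreated and -0.36 in treated cells, 2 contrasts that share the arrays at 0 h. Mcm7, a helicase subunit, differed by -0.05 ± 0.04. The E2F sequence, searched as TTTNGCGC or TTTCCCGC on both strands, stood in 20 of the 42 promoters of this list and in 11 of the 26 of its lower members, against 4.08% of all promoters and 7.38% of those of all lower genes. Part of the promoters of 4 lower members is shown with the E2F sequence in capitals; in Mcm5 a pair of matches on opposite strands shares its GCGC. The windows are chr11:98907993-98908050 (plus strand), chr17:56304108-56304165 (plus), chr8:75109340-75109397 (plus) and chr1:128359715-128359772 (minus).
Cdc6: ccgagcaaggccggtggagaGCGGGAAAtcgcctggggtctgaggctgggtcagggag
Uhrf1: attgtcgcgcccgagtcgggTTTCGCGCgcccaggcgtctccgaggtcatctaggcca
Mcm5: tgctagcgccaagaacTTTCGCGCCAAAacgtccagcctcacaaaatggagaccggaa
Mcm6: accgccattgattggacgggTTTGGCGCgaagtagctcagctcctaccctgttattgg

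Among 39 genes of G2/M and mitosis 11 were lower and 2 higher (median -0.07), 6 lower without the second treated array, and the higher members did not both pass with any 1 array left out. Mad2l1, of the spindle checkpoint, was 1.25-fold lower and the topoisomerase Top2a 1.19-fold lower, in 1 of 3 probe sets. Of 7 CDK inhibitors 1 was higher and 3 lower (median -0.19). Cdkn2b (p15), a known TGFβ target that blocks CDK4 and CDK6, read 10.77 and 10.83 in treated and 10.11 and 10.09 in untreated cells, 1.62-fold higher (adjusted p = 1.63e-08). Its relatives Cdkn2c (p18) and Cdkn2d (p19) were lower. Cdkn2c read 10.27 and 10.29 against 10.85 and 10.82, 1.47-fold lower, and Cdkn2d 7.66 and 7.70 against 8.41 and 8.68, 1.82-fold lower. Cdkn1a (p21), the other lower member, was near the threshold at -0.19 ± 0.06 (adjusted p = 0.0335, 1 of 2 probe sets). It did not pass by limma without the first treated array (adjusted p = 0.49) or without the first or second untreated array (adjusted p = 0.121 and 0.123). Cdkn1b (p27) differed by 0.05 ± 0.08 (adjusted p = 0.792).

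Of 28 genes of the BCL2 family and death receptors 5 were higher and 6 lower (median -0.10), 3 lower without the second untreated array. The rises included BH3-only genes, which promote cell death. Bcl2l11 (Bim) read 10.16 and 10.35 in treated and 9.52 and 9.43 in untreated cells, 1.72-fold higher in all 5 probe sets. Bmf read 9.75 and 9.57 against 8.34 and 8.53, 2.34-fold higher in 1 of 3 probe sets. The death receptors Fas and Tnfrsf1a were lower, 1.61-fold and 1.33-fold. Of 36 genes of insulin signalling and FOXO targets 8 were higher and 6 lower (median -0.03). Fbxo32, a ubiquitin ligase subunit, was 2.57-fold higher in all 3 probe sets, the kinase Sgk1 1.80-fold higher, and Deptor, an inhibitor of mTOR, read 9.34 and 9.47 against 10.47 and 10.51, 2.12-fold lower (adjusted p = 2.63e-12).

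Cholesterol synthesis genes, which SREBP2 controls, were lower in treated than in untreated cells at 6 h although their median stood above its 0 h level in both. Of 31 genes of sterol synthesis, uptake and efflux 19 were lower and 3 higher (median -0.28). Pmvk, a kinase of the mevalonate route, read 9.43 and 9.48 in treated and 10.18 and 10.23 in untreated cells, 1.68-fold lower (adjusted p = 1.33e-07). Dhcr7, which makes cholesterol in the last step, read 9.82 and 9.82 against 10.34 and 10.48, 1.51-fold lower (adjusted p = 1.33e-06). Hsd17b7, a reductase of the sterol ring, read 8.94 and 9.03 against 9.57 and 9.47, 1.45-fold lower. Treated and untreated arrays did not overlap in any of them, as in 2860 of the 2862 called genes, so this adds little to their calls. The median difference of the list between 6 h and 0 h was 0.87 in untreated and 0.57 in treated cells. Over all genes, 23.9% differed from 0 h in untreated and 27.3% in treated cells by limma. For Dhcr7 the differences were 1.68 and 1.09, and for Pmvk 1.5 and 0.75, on the log2 scale and against shared 0 h arrays. The 3 higher members, Npc1, Abcg1 and Mylip, serve transport and receptor breakdown, but the lower members also included a transporter, Abcg8, and Npc2 differed by -0.05 ± 0.06. The sequence CCAAT, on either strand, stood in all 15 promoters of lower members that have an entry and in 22 of 25 of the list, against 42.0% of all promoters. The classical sterol response element stood in 0 of the 25 and in 0.221% of all. Part of 4 of these promoters is shown with CCAAT or its reverse complement ATTGG in capitals. The windows are chr3:89454385-89454439 (plus strand), chr7:143830145-143830199 (plus), chrX:8193533-8193587 (minus) and chr10:76531523-76531577 (plus).
Pmvk: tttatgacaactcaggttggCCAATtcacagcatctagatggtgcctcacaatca
Dhcr7: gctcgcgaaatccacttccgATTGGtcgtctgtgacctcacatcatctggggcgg
Ebp: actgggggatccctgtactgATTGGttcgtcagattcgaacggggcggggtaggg
Lss: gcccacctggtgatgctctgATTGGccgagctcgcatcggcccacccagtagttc

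Of 37 fatty acid synthesis and storage genes 6 were higher and 9 lower (median -0.12). Elovl6, which lengthens palmitate, read 9.59 and 9.53 in treated and 10.67 and 10.66 in untreated cells, 2.14-fold lower (adjusted p = 8.69e-12). Acss2, which activates acetate, was 2.02-fold lower and Acsl3, which activates long-chain fatty acids, 1.92-fold higher (10.66 and 10.56 against 9.77 and 9.58). The lipid droplet gene Plin2 was 1.4-fold higher.

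The list of glycolysis and of genes that low oxygen and HIF1 induce had 18 lower and 2 higher members of 39 (median -0.19). Ankrd37 read 7.09 and 7.19 in treated and 8.71 and 8.67 in untreated cells, 2.93-fold lower (adjusted p = 7.93e-08). The glycolytic aldolase Aldoc read 8.87 and 8.86 against 10.26 and 10.19, 2.56-fold lower (adjusted p = 6.88e-11). Pdk1, which holds pyruvate back from mitochondria, read 9.75 and 9.55 against 10.32 and 10.33, 1.60-fold lower in 3 of 4 probe sets. Levels since 0 h differed between the arms in some members: Ankrd37 stood 2.28 above its 0 h level in untreated and 0.73 in treated cells, Aldoc 2.06 and 0.70, and Bnip3, of mitochondrial autophagy, 2.13 and 1.54, all log2 differences at 6 h. These members lay far above the list. Its median difference between 6 h and 0 h was 0.15 in untreated and 0.06 in treated cells, against 0.04 and 0.01 over all genes. The 2 higher members were Hif1a (0.39) and Ddit4 (0.32), an inhibitor of mTOR, and the glycolytic gene Pgam1 differed by -0.06 ± 0.05. The core of the hypoxia response element, ACGTGC on either strand, stood in 18 of 36 promoters of the list and in 8 of 17 of its lower members, against 8.47% of all promoters. A run CACGTGC holds both this core and the E-box CACGTG, which 10.2% of all promoters and 15.3% of those of lower genes carried. Part of 4 promoters of lower members is shown with the core in capitals, its matches on both strands overlapping in Bnip3. The windows are chr7:138909578-138909633 (minus strand), chr8:46000056-46000100 (minus), chr7:46845749-46845803 (plus) and chr14:45318601-45318656 (minus).
Bnip3: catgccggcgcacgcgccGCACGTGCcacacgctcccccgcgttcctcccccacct
Ankrd37: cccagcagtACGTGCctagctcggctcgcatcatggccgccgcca
Ldha: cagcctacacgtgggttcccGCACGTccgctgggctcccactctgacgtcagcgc
Ero1a: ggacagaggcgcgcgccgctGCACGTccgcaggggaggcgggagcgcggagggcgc

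Stress and quality control genes were lower more often than higher. Of 40 genes of the integrated stress and unfolded protein response 14 were lower and 3 higher (median -0.11). Ddit3 (CHOP), a death-promoting transcription factor, read 7.84 and 7.82 in treated and 8.41 and 8.42 in untreated cells, 1.5-fold lower. Slc7a5, an importer of large amino acids, was 1.46-fold lower and the serine synthesis enzyme Psat1 1.34-fold lower, whereas the chaperone Hspa5 (BiP) differed by -0.09 ± 0.04. Nupr1, a stress-induced chromatin protein, was 2.17-fold higher (8.11 and 8.09 against 6.98 and 6.98). When every array was centred on its median, 10 members were lower. Of 34 chaperone and proteasome genes 7 were lower and none higher (median -0.05), among them the immunoproteasome subunit Psmb9 (1.27-fold lower). Of 40 genes of the mitochondrial ribosome and import 9 were lower and 1 higher (median -0.09), the higher member not passing without the second treated or either untreated array, with Mrpl16 1.29-fold and Timm8a1 1.30-fold lower. Lower were 20.6% of the chaperone and proteasome list and 22.5% of the mitochondrial ribosome and import list, against 7.96% of all genes. The TCA cycle and electron transport list did not share this direction: of 36 genes 1 was higher and 1 lower. Its higher member did not pass without either treated or the first untreated array. The 5.56% called in this list lay below the 15.7% of all genes. Of 41 lysosome and autophagy genes 11 were lower and 5 higher (median -0.03), 7 lower without the first treated or the second untreated array and 3 higher without either treated array. Wipi1, of the early autophagosome, was 1.74-fold higher in 5 of 6 probe sets, and the sialidase Neu1 1.51-fold lower in 1 of 3.

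Of 38 interferon and antigen presentation genes 11 were lower and 2 higher (median -0.09), 5 higher without the second untreated array. Iigp1, an interferon-induced GTPase, read 6.31 and 6.37 in treated and 7.58 and 7.43 in untreated cells, 2.24-fold lower (adjusted p = 9.88e-09). Gbp2, another such GTPase, was 1.63-fold lower, and the exonuclease Isg20 1.51-fold lower. Oasl2 opposed them at 6.75 and 6.71 against 4.99 and 4.70, 3.70-fold higher (adjusted p = 7.5e-10). B2m, the light chain of class I molecules, differed by 0.08 ± 0.06. Of 43 genes of NF-κB, chemokines and IL-6 signalling 5 were higher and 6 lower (median -0.02). The neutrophil attractants Cxcl3 and Cxcl2 were 2.75-fold and 1.69-fold lower, Cxcl3 at 8.61 and 8.51 against 9.99 and 10.05. The monocyte attractant Ccl2 was 2.18-fold higher at 7.74 and 8.03 against 6.64 and 6.89. The subunits Nfkb2 and Relb were 1.32-fold and 1.51-fold lower. Higher members numbered 2 without the second treated array and 3 without the first untreated array.

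Hepatocyte gene lists had more lower than higher members, but the share called, in either direction, varied between lists. It was 19.4% in the urea cycle list and 24.1% in hepatocyte transcription factors, against 15.7% of all genes. For conjugation enzymes and transporters it was 36.4%, and for NRF2 targets and glutathione genes 32.1%. Of 52 secreted plasma proteins 6 were lower and 3 higher (median -0.11), 1 higher without the second treated array, and the 17.3% called lay near the 15.7% of all genes. Fibrinogen β (Fgb) read 7.35 and 7.54 in treated and 8.30 and 8.15 in untreated cells, 1.71-fold lower (adjusted p = 3.27e-06). Afp and Alb were 1.38-fold and 1.31-fold lower, and Rbp4, the retinol carrier, differed by -0.13 ± 0.05. Among 29 hepatocyte transcription factors 5 were lower and 2 higher (median -0.09), 1 higher without either untreated array. Foxa2 read 8.97 and 8.97 against 9.55 and 9.48, 1.46-fold lower, and the clock output factor Dbp was 2.01-fold lower, whereas Foxa1 differed by -0.01 ± 0.05. Of 31 genes of the urea cycle and amino acid breakdown 4 were lower and 2 higher, and 8 were lower after further quantile normalization. The largest rise of this list was that of Cps1, a hepatocyte marker that makes carbamoyl phosphate for this cycle, which read 6.38 and 6.35 against 3.60 and 3.44, 7.17-fold higher (adjusted p = 3.22e-08). Cth, which makes cysteine, read 7.45 and 7.52 against 8.48 and 8.53, 2.03-fold lower, and the arginase Arg2 8.36 and 8.30 against 7.23 and 7.31, 2.09-fold higher. Of 44 conjugation enzymes and transporters 11 were lower and 5 higher (median -0.10), 7 lower without the second treated or the first untreated array and 2 or 3 higher without those or the second untreated array. The organic anion carrier Slco4a1 read 7.39 and 7.56 against 8.60 and 8.46, 2.08-fold lower. The glucuronosyltransferase Ugt2b34 was 2.21-fold lower beside its close relative Ugt2b35, and the probe sets may not separate these. Of 28 NRF2 targets and glutathione genes 7 were lower and 2 higher, 4 lower without the first treated or the first untreated array and 1 higher without the second treated or the second untreated array, and Gclc, which limits glutathione synthesis, was 1.47-fold lower. Ahr, the sensor of aromatic compounds, was 1.41-fold higher (11.93 and 11.95 against 11.45 and 11.45). Of the PPARα targets, Vnn1 and Pdk4 were 1.68-fold and 1.56-fold lower. In iron handling, the exporter ferroportin (Slc40a1) was 1.58-fold higher (10.08 and 10.14 against 9.47 and 9.44) and the ferritin chain Fth1 differed by -0.10 ± 0.04.

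**Figure D4:**
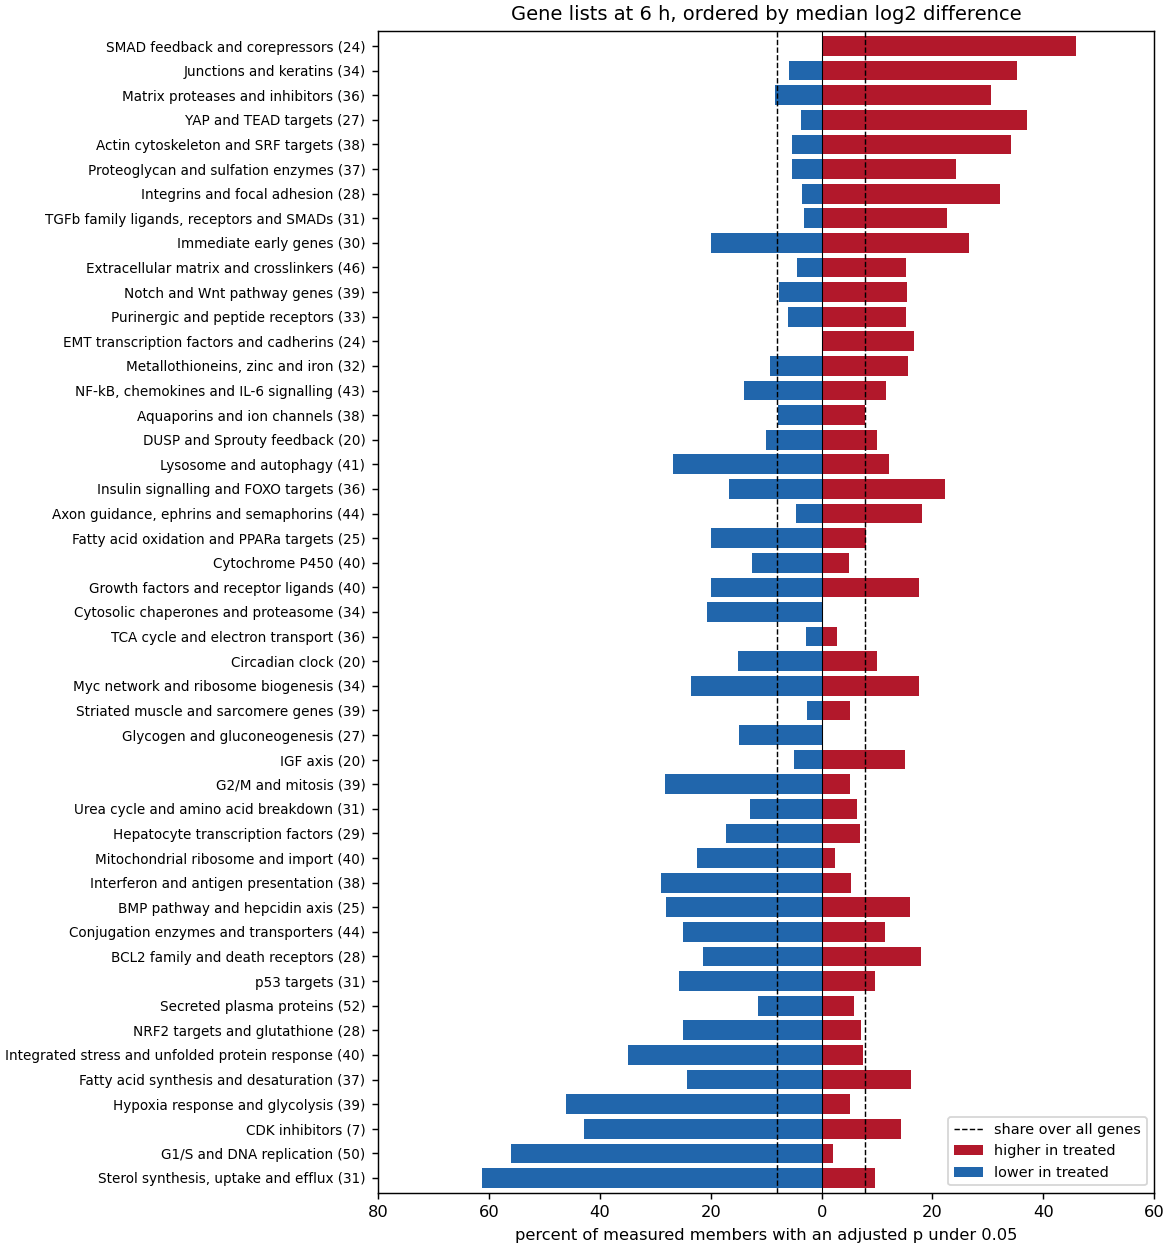
Bars give the percent of each list's measured members (number in parentheses) that were higher (right) or lower (left) in treated cells at 6 h with an adjusted p under 0.05, and lists are ordered by median log2 difference. Dashed lines mark 7.77% and 7.96%, the shares over all genes; SMAD feedback stands at the top and sterol synthesis at the bottom.

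The response at 6 h shared much with that at 3 h and 10 h and less with that at 1 h, where 348 genes were higher (1.91%) and 59 lower (0.324%). Of the 126 genes with a rise of at least 2-fold at 6 h, 53 also passed upward at 1 h, 118 at 3 h and 105 at 10 h, and their median log2 difference was 0.35, 1.30, 1.36 and 0.68 at 1, 3, 6 and 10 h. At 3 h 6.73% of all genes were higher and at 10 h 5.07%. Of the 49 genes at least 2-fold lower, 2 were also lower at 1 h, 43 at 3 h and 39 at 10 h, with medians of -0.10, -0.81, -1.28 and -0.83. At 3 h 8.55% of all genes were lower and at 10 h 4.06%. Since the genes were picked for their size at 6 h, the smaller medians at other times are in part fixed by that choice. Over all calls, 627 rises were shared by 6 h and 10 h, 44.3% of those at 6 h and 67.9% of those at 10 h. Shared falls numbered 514, 35.5% and 69.6%. Calls in the same direction at all 4 times were 126 upward and 9 downward. These effects share no array but rest on the same estimate of spread for each gene.

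The 6 h effect differed from the 3 h effect in 828 genes (4.55%), more positive in 521 and more negative in 307, and the total was 521 without the second treated array of 6 h. Cxcl10, an interferon-induced attractant of T cells, was 1.75 at 3 h and -0.20 ± 0.09 at 6 h, where its arrays read 7.14 and 7.31 treated and 7.46 and 7.40 untreated and did not pass (adjusted p = 0.178). The difference of -1.95 between these effects passed (adjusted p = 4.19e-08). Bach2, a transcriptional repressor, went from 1.52 to 0.17, and Sntb1, a syntrophin, from -0.27 to -1.91. In the other direction, Nrg1, a ligand of ErbB receptors, went from -1.28 to 0.21 and Prex2, an activator of Rac, from -0.02 to 1.38. Treated arrays of Prex2 read 6.43 and 6.62 and untreated arrays 5.00 and 5.27 at 6 h.

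**Figure D5:**
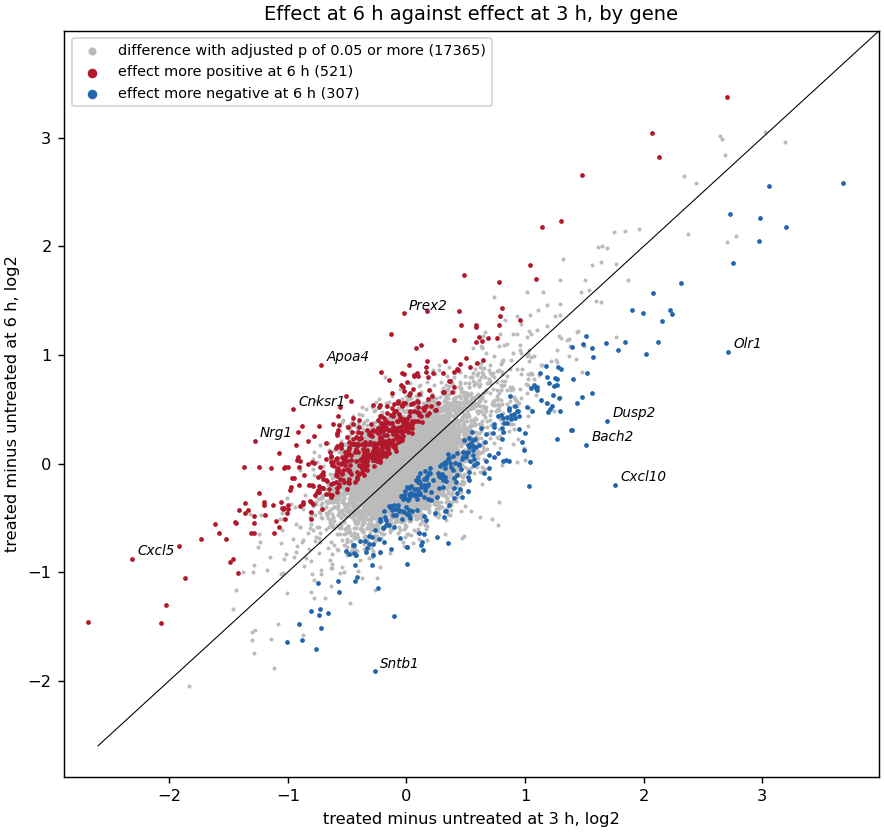
Each point is a gene, with the log2 difference of treated and untreated cells at 3 h on the horizontal axis and at 6 h on the vertical axis; the line marks equal effects. Red (521 genes) and blue (307) mark effects that were more positive or more negative at 6 h by limma's test of the difference, with the 5 largest in each direction named.

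From 6 h to 10 h, 444 genes (2.44%) had a different effect. Hunk went from -1.34 to -0.09 and Fgfbp1, a carrier of fibroblast growth factors, from -0.83 to 0.28, a change of sign. Fgfbp1 read 8.45 and 8.74 treated and 9.36 and 9.50 untreated at 6 h. Pstpip1 went from 2.10 to 0.55 and Chst8 from 2.17 to 0.37. Opposite calls at 6 h and 10 h numbered 11, and in 2 of them, Vamp8 (0.32 and -0.16) and Plpp5 (0.45 and -0.23), the rise was the one at 6 h; both were named after their values were seen. At 6 h and at no other time 918 genes passed, 395 higher and 523 lower. In 8 of these the 6 h effect also differed from each of the other 3 by limma, and these too were named after their values were seen. The 4 rises were Sec24d, a coat protein of vesicles leaving the endoplasmic reticulum (0.51), the hyaluronan receptor Cd44 (0.41), Hif1a, the oxygen-regulated factor itself (0.39 ± 0.06), and Tmem263 (0.29). The 4 falls were the efflux pump Abcc4 (-0.78 ± 0.08), the receptor phosphatase Ptprd (-0.77 ± 0.10), Lysmd2 (-0.42) and Fmnl2, a formin that builds actin filaments (-0.30). Hif1a was 0.02 at 1 h, -0.08 at 3 h and 0.03 at 10 h, and Abcc4 read 8.07 and 8.08 in treated and 8.98 and 8.75 in untreated cells at 6 h.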

How the data were processed

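RNA of 20 Hepa1-6 samples was hybridised to Affymetrix mouse genome arrays. The authors deposited log2 levels made with RMA, per the submitters' processing notes; no source used here gives its version or chip description. RMA fits probes over all arrays together. Its values also tend to compress small differences at low levels. Of 45037 probe sets, 34945 had 1 gene in the platform annotation, 932 several and 9160 none; the gene's probe set with the highest mean was used.

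The 10 groups were fitted in limma 3.58.1 (R 4.3.3) with a variance trend, 10 residual degrees of freedom and no replicate block, because the replicate numbers did not pair arrays (correlation 0.103 for the 6 h groups). P-values were adjusted by Benjamini-Hochberg over 18193 genes, with a threshold of 0.05, and measure the spread between duplicates. The number of arrays limits the precision: the median standard error at 6 h was 0.126. Named genes were the 25 largest rises and 25 largest falls with named symbols and no overlap of arrays, up to 5 called members of each of 48 lists by lowest adjusted p with the uncalled member of the highest level, and the 5 largest differences from the 3 h and 10 h effects in each direction; others are marked as chosen after their values were seen or only listed as members. The result of 1 list is not reported here. The members and lists were chosen with earlier results of these data known. Promoter sequences are from RefSeq, for 14452 of the tested genes. Promoters of 1 chromosome were left out of the search, so list members on it count as having no entry. Alternatives were other scalings, probe set rules, variance models, the 0 h arrays as control and each array left out.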

Additional observations from a re-analysis of the deposited data

Results flagged for a closer look

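Differences between the 6 h effect and the effects of other times were tested with limma, and 828 genes passed against 3 h, 1308 against 1 h and 444 against 10 h. Against 3 h, the 6 h effect was more positive by 1.63 on the log2 scale in Apoa4, a lipoprotein gene, by 1.49 in Nrg1, by 1.46 in the scaffold gene Cnksr1, by 1.43 in the chemokine Cxcl5 and by 1.41 in Prex2. It was more negative, with a difference of -1.95 in Cxcl10, -1.68 in the lectin-like receptor Olr1, -1.64 in Sntb1, -1.34 in Bach2 and -1.30 in the phosphatase Dusp2.

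Against 10 h, the 6 h effect was more positive by 1.81 in Chst8, by 1.80 in Trbv1, by 1.55 in Pstpip1, by 1.45 in the LIM domain gene Lmcd1 and by 1.44 in Ldlrad4. It was more negative, with a difference of -1.69 in the monooxygenase Cyp1a1, -1.67 in the vascular ligand Angpt1, -1.25 in Hunk, -1.12 in Tmem71 and -1.11 in Fgfbp1. These genes were picked for the size of the difference, so the sizes are descriptions.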

How the results depend on the processing

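The 253 called genes named by rule kept direction and call in 252 with further quantile normalization, 250 with median centring, 247 with fewer arrays or no variance trend, 231 with the mean of a gene's probe sets, 253 with array weights and 240 to 248 with 1 array left out. With 1 array left out, 2046 to 2250 genes changed at 6 h (979 to 1256 higher, 994 to 1109 lower), 175 to 188 by at least 2-fold, and 521 to 617 differed from 3 h, 1025 to 1095 from 1 h and 314 to 340 from 10 h. The balance of directions moved with the scaling, to 1342 higher and 1736 lower with quantile normalization and 1429 higher and 1170 lower with median centring. Testing each of the 34945 probe sets with 1 gene on its own gave 2129 higher, 1823 lower and 284 at least 2-fold changed. These are counts of probe sets and not of genes. Differences from 3 h and 10 h numbered 442 and 287 with the mean of probe sets, and 375 and 240 with no variance trend. A replicate block gave 3021 genes, 2849 of them shared with the fit without it, and changed no call among the 253; the numbers did not pair the arrays.

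With the 0 h arrays as control 4963 genes changed, 2354 higher and 2609 lower, and time is then part of the contrast. Values that changed sign were Acss2 0.60, Aldoc 0.70, Ankrd37 0.73, Bnip3 1.54, Btg2 0.33, Cdc20 0.11, Cdkn1a 0.32, Dhcr7 1.09, Ebp 0.22, Ephx1 0.10, Fah 0.19, Gabarapl1 0.041, Hsd17b7 1.20, Idi1 0.89, Neu1 0.31, Nfkb2 0.49, Pgm1 0.13, Pmvk 0.75, Psmb9 0.058, Psme1 0.0051, Relb 0.020, Slc39a4 0.26, Cox5a -0.040 and Igf2bp1 -0.25. Among these sign changes, Cdc20, Cox5a, Ephx1, Fah, Gabarapl1, Igf2bp1, Pgm1, Psmb9, Psme1 and Relb did not pass by limma against 0 h. With this control 199 of the 253 named genes kept direction and call. A further 30 kept the direction but lost the call, and 24 changed sign. Levels near the array's floor limit the lowest genes.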

Other observations

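Of 39 genes of striated muscle and the sarcomere 2 were higher and 1 lower at 6 h (median -0.06), 2 lower without the first treated array, and of 40 cytochrome P450 genes 2 were higher and 5 lower (median -0.04), 3 lower without the second treated or the first untreated array and 1 higher without the second untreated array. Of 38 aquaporin and ion channel genes 3 were higher and 3 lower, and 6 were lower after further quantile normalization. These counts also moved with 1 array left out. The share called was 7.69% in the muscle list, 17.5% in cytochrome P450 and 15.8% in aquaporins and channels. Over all genes it was 15.7%, so none of these 3 lists stood far above that share. Of 20 circadian clock genes 2 were higher and 3 lower, and of 33 purinergic and peptide receptors 5 were higher and 2 lower, with 3 higher without the first treated array.

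Among promoters, the palindrome GTCTAGAC, bound by SMADs, stood in 5 of the 1123 of genes higher at 6 h (0.445%) and in 42 of all 14452 (0.291%). The sequence AGCCAGACA stood in 2 (0.178%) and 62 (0.429%) of the same promoters. Counts this small do not show a difference between the sets. These are descriptions of the letters in 300 bases.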
